A study of Mus musculus with 91 samples.

Results

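Among 91 single layer 5 pyramidal neurons (Pyrs) of mouse primary visual cortex, 14 carried counts of *Gfap*, *Aqp4* or *Mlc1*, genes that mark astrocytes, and 62 carried none of these 3, and these 2 groups are compared here. The neurons were collected by Patch-seq, in which a neuron is recorded through a glass pipette, its contents are drawn into that pipette and its RNA is sequenced. Neurons were selected by the summed counts of *Gfap*, *Aqp4* and *Mlc1*: a sum of at least 10 made a neuron Astro+, and a sum of 0 made it Astro-. The 7 neurons with sums from 1 to 9 were left out, and so were 8 neurons whose sum of log2(count + 1) over the GABAergic genes *Slc32a1*, *Gad1* and *Gad2* exceeded 7. All mice were wild type. Layer 5 Pyrs receive input from LP, a higher-order visual nucleus of the thalamus, or from ORBvl, the ventrolateral orbitofrontal cortex. The labels give 47 neurons as Pyr←LP and 44 as Pyr←ORBvl, and per the study's methods these types were predicted by a classifier from a membrane current, Ih, of each neuron, not from stimulated input. The labels give neither the mouse of a neuron nor its age.

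Astrocytes are glial cells whose fine processes wrap synapses and blood vessels. They clear glutamate and potassium from the space around neurons, and they supply neurons with metabolites. *Gfap* encodes an intermediate filament protein of astrocytes, *Aqp4* encodes a water channel of their endfeet, and *Mlc1* encodes a membrane protein of their perivascular and subpial processes. Pyramidal neurons are not known for expressing any of the 3.

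Of the 14 Astro+ neurons, 8 had a count of only 1 of the 3 genes, 5 had 2 of them and 1 had all 3. On GRCm38, *Gfap* lies at chr11:102887336-102897200 and *Mlc1* at chr15:88955884-88982693. *Gfap* had a count in 12 of the 14 Astro+ neurons, at 3 to 394 counts. *Mlc1* had one in 6, at 1 to 537 counts, and *Aqp4* in 3, at 12 to 45 counts. *Gfap* was the only one of the 3 in 6 neurons, and it made up most of the sum in 10. Pyr←ORBvl C30 had *Mlc1* alone, and Pyr←ORBvl C34 had *Aqp4* alone. Pyr←LP C31 was the single Astro+ neuron with all 3, and its GABAergic sum of 6.97 lay just under the limit of 7.

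The summed counts of the Astro+ neurons were between 24 and 537, with a median of 277. The lowest were 24 in Pyr←ORBvl C14 and 34 in Pyr←ORBvl C34, the nearest above the threshold, and the highest among the neurons left out in between was 8 in Pyr←LP C46. Relative to the total counts of each neuron, the 3 genes summed to 124 to 1809 counts per 1000000 (CPM), with a median of 441 CPM. Pyr←LP C31 was the highest. These values chose the groups and are given as a description.

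**Figure D1:**
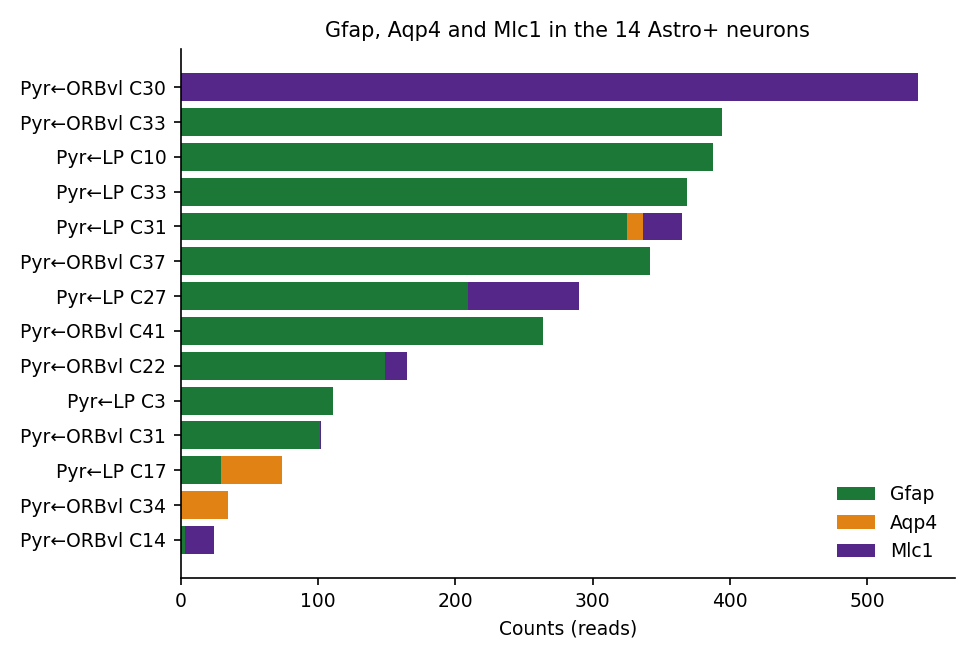
Counts of *Gfap*, *Aqp4* and *Mlc1* (stacked bars, in reads) in each of the 14 Astro+ neurons, ordered by their sum. *Gfap* makes up most of the sum in 10 neurons, *Mlc1* alone gives the highest sum of 537, and *Aqp4* appears in 3 neurons.

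Astro+ neurons came from both types. They were 6 of 40 Pyr←LP neurons (15%, 95% Wilson interval 7.06 to 29.1%) and 8 of 36 Pyr←ORBvl neurons (22.2%, 11.7 to 38.1%). The shares did not differ beyond counting error (two-sided Fisher's exact test, p = 0.556). Each neuron's label opens with a prefix, and neurons that share a prefix are treated here as a batch, although the labels do not say what it stands for. Prefixes that differ by a hyphen (8-22 and 822, 8-23 and 823, 8-26 and 826) were merged, which took 20 prefixes to 17 and those with Astro+ neurons from 9 to 8. Of the 17, 8 held Astro+ neurons and 7 held both groups. Prefixes 909, 913 and 914 held 8 of the 14 Astro+ neurons, whereas 40 of the 62 Astro- neurons came from prefixes without any. Group and prefix are therefore partly confounded.

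Total counts were between 55127 and 1201992 in Astro+ neurons (median 500358) and between 2545 and 1699215 in Astro- neurons (median 445008). Astro+ neurons had counts on 2218 to 6705 genes (median 4147) and Astro- neurons on 1170 to 6867 (median 3540). After each neuron was thinned to 100000 counts, the medians were 3465 genes in 13 Astro+ neurons and 3273 in 48 Astro- neurons, and 1 Astro+ and 14 Astro- neurons were too shallow to be thinned. At equal counts the direction differed between the types, with medians of 4163 genes in Astro+ and 2850 in Astro- Pyr←LP neurons, and of 3465 and 3713 in Pyr←ORBvl neurons. The part of the number of detected genes in the counts of marker genes given below was not tested.

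The Astro+ neurons also held counts of other astrocyte genes, but so did the Astro- neurons. Of a list of 50 further astrocyte genes, 49 were in the count table. Astro+ neurons had counts on 11 to 30 of them (median 19.5) and Astro- neurons on 6 to 22 (median 14). The groups overlapped, although Pyr←LP C17, C27 and C31 and Pyr←ORBvl C14 and C30 had more than any Astro- neuron. At 100000 counts per neuron the medians were 19 and 13 genes. Their summed level was 5459 to 39763 CPM in Astro+ neurons (median 15788) and 797 to 37584 CPM in Astro- neurons (median 7352). Within the 7 prefixes that hold both groups, the mean summed level was higher in the Astro+ neurons in 6.

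**Figure D2:**
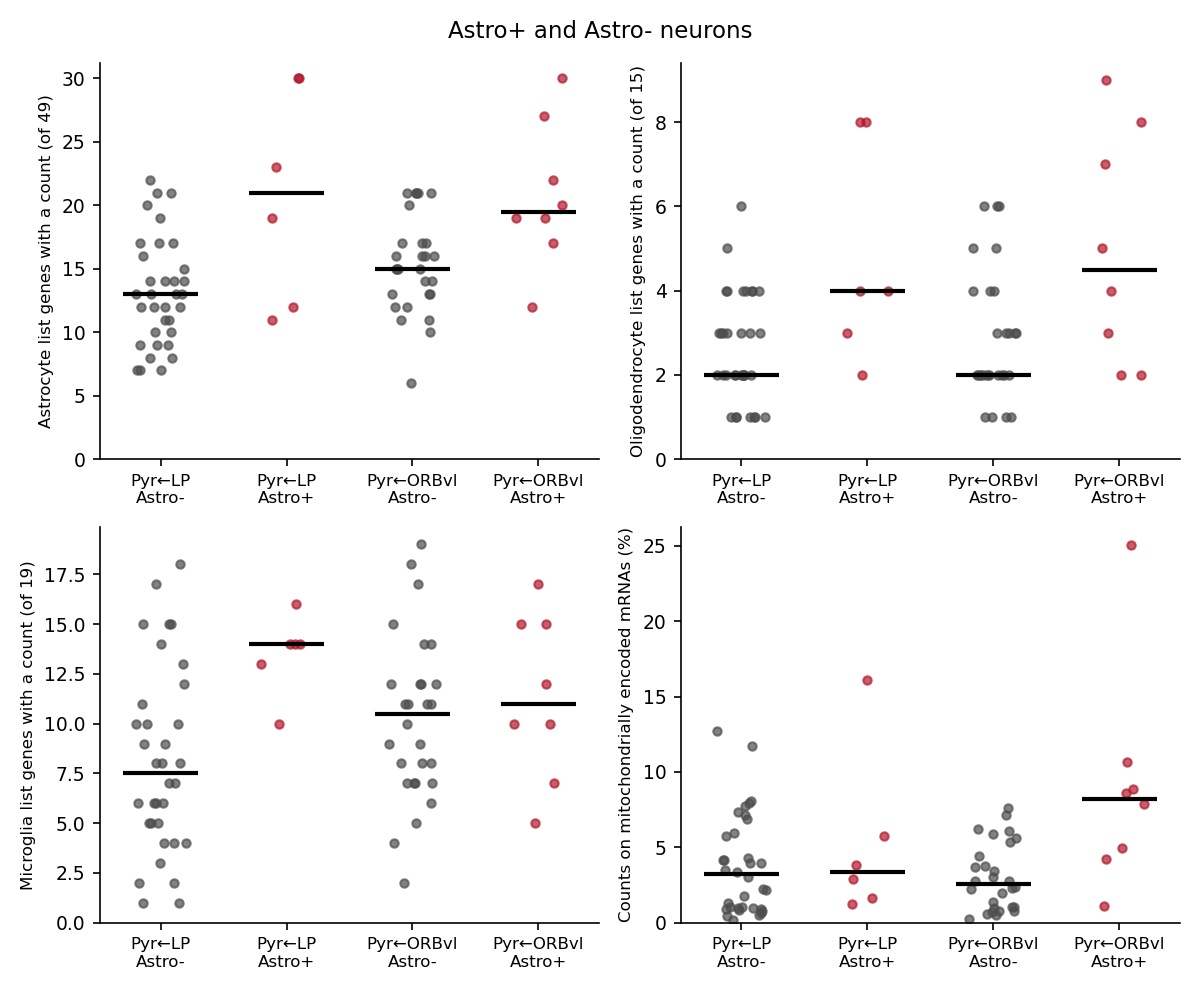
Each point is a neuron, split by input type and by group, and black bars are medians. The panels give the astrocyte, oligodendrocyte and microglia list genes with a count and the percent of counts on mitochondrially encoded mRNAs. The groups overlap in every panel, and the median mitochondrial share is 3.37% in Astro+ and 3.20% in Astro- Pyr←LP neurons, beside 8.23% and 2.56% in Pyr←ORBvl neurons.

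Gene by gene, no astrocyte gene passed the test. Expression was compared with edgeR's quasi-likelihood test, with a term for input type, on the 7174 genes that reached 5 counts in 10 or more neurons. A call needed a Benjamini-Hochberg adjusted p below 0.05 and a change of more than 2-fold. This rule called 49 genes, 0.683% of those tested. Of the astrocyte list 22 genes passed the filter on low counts and 0 were called, which with so few genes is near that share. Of the 22, 5 had an unadjusted p under 0.05, all of them with a positive difference. Over all genes tested, 383 (5.34%) had such a p, 167 of them higher in Astro+ neurons, and 52.0% of differences were positive. The other tool run on the counts, DESeq2, also called 0 of the 22. The differences were positive for 20 of the 22 genes, with a median log2 fold change of 1.22 beside 0.05 for all genes tested. With the RLE size factors the median of all genes moved to -0.69, the list's to 0.50, and 14 of 22 were positive. Of the 22, 19 lay above the median of all genes, beside 20 in the first fit. The list stood closer to the rest with the prefix as a block, where its median was 0.74 beside 0.58 for all genes. With counts summed per prefix its median was 0.04 beside -0.55, and 11 of 22 were positive.

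Of the 5 astrocyte genes with an unadjusted p under 0.05, 3 encode metabolic enzymes. *Acsbg1*, an acyl-CoA synthetase for long fatty acids, had a median of 2.78 CPM in Astro+ neurons (0 to 2467) and 0 CPM in Astro- neurons (0 to 1625). It had a count in 9 of 14 and 14 of 62 neurons. Its log2 fold change was 3.40 ± 1.19 (SE; adjusted p = 0.303), and over both types it was called only with no gene filter and, at 8.20 (adjusted p = 0.00213), when the neurons of prefix 913 were left out. *Aldoc*, the brain form of aldolase and a glycolytic enzyme, had 1171 CPM (0 to 4970) and 506 CPM (0 to 4318), a log2 fold change of 1.42 ± 0.60 (adjusted p = 0.637). *Glul*, glutamine synthetase, which turns glutamate into glutamine, had 303 CPM (0 to 1633) and 116 CPM (0 to 1201), a log2 fold change of 1.49 ± 0.75 (adjusted p = 0.910). The ranges of the groups overlapped for each of the 3.

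*Ndrg2* and *Prdx6* were the other 2 astrocyte genes with an unadjusted p under 0.05. *Ndrg2* had a median of 671 CPM in Astro+ neurons (0 to 4807) and 191 CPM in Astro- neurons (0 to 2224), with a log2 fold change of 1.73 ± 0.73 (adjusted p = 0.630). *Prdx6*, a peroxiredoxin that reduces peroxides, had 591 CPM (0 to 1832) and 85.6 CPM (0 to 1507), with a log2 fold change of 1.73 ± 0.78 (adjusted p = 0.753). The highest *Ndrg2* value was in Pyr←ORBvl C14, the Astro+ neuron with the lowest summed counts of the 3 selecting genes.

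Of the transporters and channels of astrocytes, most were sparse in both groups and *Slc1a2* was not. *Slc1a3*, the glutamate transporter GLAST, had a count in 6 of 14 Astro+ and 13 of 62 Astro- neurons (log2 fold change 2.13 ± 1.12, adjusted p = 0.970). *Slc1a2*, the glutamate transporter GLT-1, had one in 11 of 14 and 46 of 62, with medians of 203 and 133 CPM (log2 fold change 0.30 ± 0.96, adjusted p = 1.00). With the RLE size factors, which moved the median of all genes from 0.05 to -0.69, the log2 fold change of *Slc1a2* was -0.47. *Gja1*, connexin 43 of astrocyte gap junctions, was seen in 2 Astro+ neurons and 1 Astro- neuron. *Slc4a4*, a sodium bicarbonate cotransporter, was at 0 in every Astro+ neuron and had a count in 7 Astro- neurons. Neither *Gja1* nor *Slc4a4* passed the filter on low counts.

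Among the remaining astrocyte genes fixed for description, *Apoe*, the lipid carrier, had a count in all 14 Astro+ and 49 of 62 Astro- neurons. Its medians were 423 and 245 CPM (log2 fold change 0.81 ± 0.74, and -0.08 with the RLE size factors). *S100b*, a calcium-binding protein, had a count in 12 and 30 neurons (log2 fold change 1.82 ± 0.99). *Sox9*, a transcription factor of astrocyte identity, had one in 5 and 18 neurons (log2 fold change 0.59 ± 1.20, and -0.85 with the RLE size factors). Those size factors moved the median of all genes from 0.05 to -0.69. *Aldh1l1*, an enzyme of folate metabolism, had a count in 4 and 7 neurons and did not pass the filter. Over the 22 astrocyte genes tested, 21 had a count in a larger share of Astro+ than of Astro- neurons, beside 5336 of all 7174 genes tested (74.4%).

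Genes of reactive astrocytes were sparse. Of 21 such genes 16 had a count in any of the neurons compared, 4 passed the filter and 0 were called (0 at an unadjusted p under 0.05). With 4 genes both are near the shares over all genes (0.683% and 5.34%). *Lcn2*, *Steap4* and *Timp1* were at 0 in all 76 neurons. Those that passed, *Cd14*, *H2-D1*, *Psmb8* and *Srgn*, are also expressed by microglia or other immune cells, and their median log2 fold change was 0.99.

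No gene of other glia was called. Of 15 oligodendrocyte genes 5 passed the filter. All 5 differences were positive, with a median log2 fold change of 2.14 beside 0.05 for all genes. With the RLE size factors 4 of 5 were positive, and all 5 lay above the median of all genes. With the prefix as a block the median was 2.21 beside 0.58 for all genes. With counts summed per prefix it was 2.23 beside -0.55, and 4 of 5 were positive. None was called, and 2 had an unadjusted p under 0.05, but with so few genes 0 calls is near the 0.683% of all genes. *Mobp*, a protein of compact myelin, had a median of 2183 CPM in Astro+ neurons (0 to 7045) and 298 CPM in Astro- neurons (0 to 5053), a log2 fold change of 2.14 ± 0.76 (adjusted p = 0.350). *Cldn11*, a tight junction protein of myelin, had a count in 4 Astro+ neurons and in 0 Astro- neurons and did not pass the filter. *Mbp*, myelin basic protein, had counts in 14 of 14 and 60 of 62 neurons. The summed level of the list was 6.77 to 13019 CPM in Astro+ neurons (median 5423) and 2.08 to 23604 CPM in Astro- neurons (median 1841).

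Microglial transcripts were found in every neuron of both groups. Astro+ neurons had counts on 5 to 17 of the 19 listed microglia genes (median 13.5) and Astro- neurons on 1 to 19 (median 8.5). Of 17 genes tested 14 differences were positive, with a median log2 fold change of 0.78 beside 0.05 for all genes. With the RLE size factors 9 were positive and the median was 0.08. The median of all genes was then -0.69, and 13 of the 17 lay above it. Of the 17, 0 were called and 1 had an unadjusted p under 0.05, both near the shares over all genes (0.683% and 5.34%). Without prefix 909 the median was 0.23 and 9 were positive, and with the prefix as a block it was 0.52 beside 0.58 for all genes. *C1qb*, a chain of complement C1q, was present in 14 of 14 and 55 of 62 neurons at medians of 908 and 356 CPM. *Cx3cr1*, the fractalkine receptor, was present in 6 and 23 neurons, and *Tmem119*, a marker of resident microglia, in 1 and 8. The summed level of the list was 76.2 to 22729 CPM in Astro+ neurons and 1.85 to 30520 CPM in Astro- neurons.

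Vascular and precursor markers were rare in both groups. None of the 16 endothelial genes, the 17 genes of pericytes, smooth muscle and fibroblasts, or the 11 genes of oligodendrocyte precursors passed the filter. *Cldn5* and *Kdr* of endothelium, *Rgs5* and *Pdgfrb* of pericytes, and *Olig2* of the oligodendrocyte lineage were at 0 in all 76 neurons. The part that these other cell types have in any difference between the groups was not tested.

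**Figure D3:**
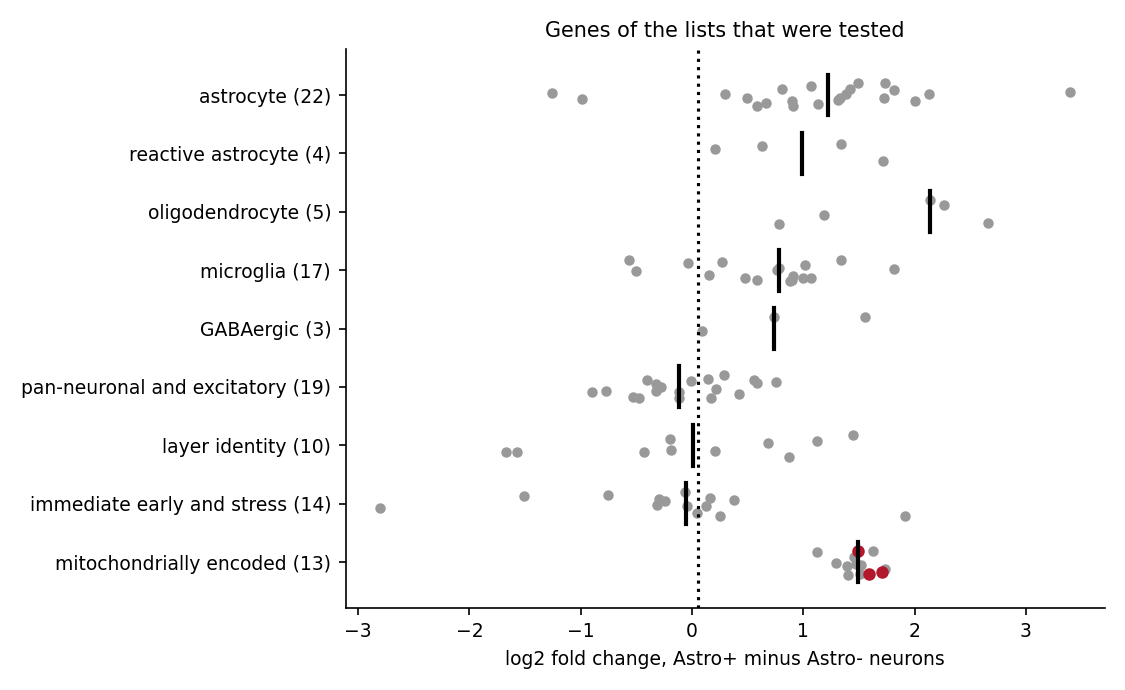
log2 fold change (Astro+ minus Astro-) of each list gene that passed the filter, with the number of genes in brackets, a black bar for each list's median and a dotted line at the median of all 7174 genes (0.05). Red points are the 3 genes called. Under the RLE size factors the median of all genes lies at -0.69, and 14 of the 22 astrocyte genes instead of 20 are positive. Of the 22, 19 lie above that median, beside 20 above the median drawn here.

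Ferritin and 3 mitochondrial mRNAs were higher in the Astro+ neurons, with calls that did not survive several alternatives. Of 39 genes with a count in every one of the 76 neurons, 4 were called: *Fth1*, *mt-Cytb*, *mt-Atp6* and *mt-Co3*, all higher in Astro+ neurons, where 0.307% of all genes tested were called higher. *Fth1*, the ferritin heavy chain that stores iron (chr19:9980600-9985111), had a median of 20788 CPM in Astro+ neurons (1468 to 45740) and 7062 CPM in Astro- neurons (up to 33861). Pyr←ORBvl C22 and C31 and Pyr←LP C3 lay above every Astro- neuron, and the other Astro+ neurons lay within the Astro- range. The log2 fold change was 1.46 ± 0.35 (adjusted p = 0.0144). *Fth1* stands outside the rule by which genes were named and was chosen after its values were seen.

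The 13 mitochondrially encoded mRNAs in the table all had positive differences, beside 52.0% of all genes. Their log2 fold changes were from 1.13 to 1.73, with a median of 1.49 beside 0.05 for all genes. With the prefix as a block the median was 0.75 beside 0.58, and 9 of the 13 lay above the median of all genes. With counts summed per prefix it was 0.74 beside -0.55, and all 13 lay above the median of all genes. The 3 called, beside 0.683% of all genes, encode subunits of the respiratory chain and of ATP synthase. *mt-Cytb*, cytochrome b of complex III, had a median of 9789 CPM (1567 to 54279) in Astro+ neurons and 4675 CPM (up to 19712) in Astro- neurons, a log2 fold change of 1.59 ± 0.38 (adjusted p = 0.0144). *mt-Atp6*, of ATP synthase, had 7502 CPM (1144 to 42348) and 2552 CPM (up to 19228), a log2 fold change of 1.70 ± 0.42 (adjusted p = 0.0144). *mt-Co3*, of cytochrome c oxidase, had 8102 CPM (961 to 32098) and 3141 CPM (up to 17288), a log2 fold change of 1.49 ± 0.38 (adjusted p = 0.0240). Together the mitochondrial mRNAs took 1.09 to 25.03% of the counts of Astro+ neurons (median 5.35%) and 0.166 to 12.7% of those of Astro- neurons (median 2.76%).

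The neurons of prefix 909 carried much of this difference. Pyr←ORBvl C31 at 25.03% and Pyr←LP C27 at 16.1% had the highest mitochondrial shares of the 76 neurons, and both came from that prefix. Without its neurons, the log2 fold changes were 1.10 for *Fth1*, 0.71 for *mt-Cytb*, 0.65 for *mt-Atp6* and 0.72 for *mt-Co3*, and none of the 4 was called. All 13 mitochondrial differences stayed positive, with a median of 0.71. The mean mitochondrial share was higher in Astro+ neurons in 4 of the 7 prefixes with both groups, and *Fth1* in 6 of 7. The calls of all 4 were also lost with DESeq2, with the RLE size factors, with the prefix as a block, with counts summed per prefix, with no gene filter, with limma on FPKM and after thinning. With the RLE size factors the log2 fold changes were 0.65 for *Fth1*, 0.74 for *mt-Cytb*, 0.90 for *mt-Atp6* and 0.63 for *mt-Co3*. The median of all genes was then -0.69. With no gene filter the median of the 13 mitochondrial genes was 1.45, beside -0.21 for all genes. After thinning the log2 fold changes were 1.26 for *Fth1*, 1.53 for *mt-Cytb*, 1.65 for *mt-Atp6* and 1.42 for *mt-Co3*, close to those over all counts. None of the 4 was called without Pyr←LP C27 (adjusted p from 0.0642 to 0.292) or without Pyr←ORBvl C37 (0.0721 to 0.194), and the 3 mitochondrial genes were not called without Pyr←ORBvl C31 (0.148 to 0.183). Without Pyr←ORBvl C37 the log2 fold changes were 1.48 for *Fth1*, 1.56 for *mt-Cytb*, 1.60 for *mt-Atp6* and 1.43 for *mt-Co3*, so the calls moved more than the sizes. *Fth1* and *mt-Co3* were not called without prefix 831 (0.0594 and 0.0552) or 915 (0.0583 for both), nor was *mt-Co3* without 823 (0.0601). The median of the 13 mitochondrial differences was 1.55 without 831, 1.52 without 915 and 1.41 without 823, beside 1.49 over all neurons.

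**Figure D4:**
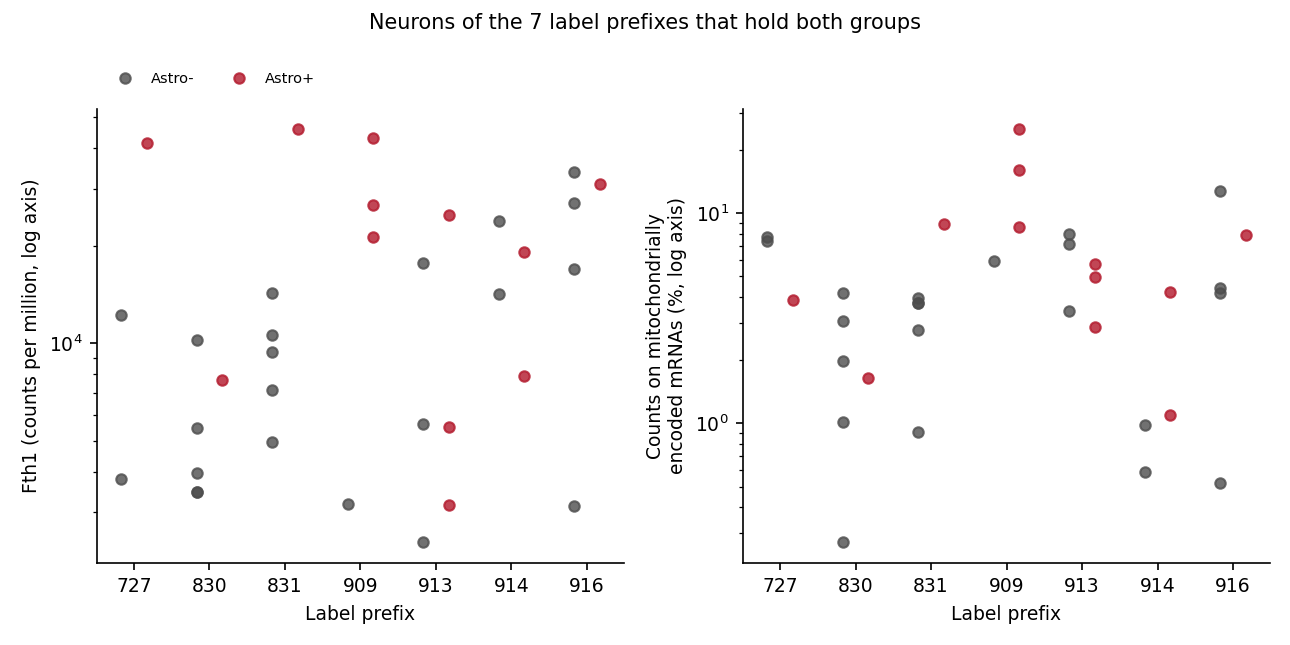
*Fth1* (CPM, left) and the percent of counts on mitochondrially encoded mRNAs (right), both on log axes, for each neuron of the 7 label prefixes that hold both groups. The Astro+ neurons of prefix 909 reach 25.03% mitochondrial counts, while in prefixes 727, 830 and 913 the mean share is lower in the Astro+ neurons.

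Beyond these 4, the genes called higher were sparse. The rule called 22 genes higher in Astro+ neurons (0.307% of those tested), and 18 of them had counts in only 3 to 9 of the 14 Astro+ neurons. *Pdk2* (chr11:95026258-95041371), a kinase that switches off pyruvate dehydrogenase, had the widest presence of the 18. It had a count in 9 of 14 Astro+ neurons, with a median of 136 CPM (0 to 875), and in 9 of 62 Astro- neurons (0 to 435 CPM). Its log2 fold change was 6.47 ± 1.24 (adjusted p = 0.00173). Its mean was higher in Astro+ neurons in 5 of the 7 prefixes that hold both groups. The log2 fold change was 8.12 within Pyr←LP neurons (adjusted p = 0.000117) and 2.32 within Pyr←ORBvl neurons (adjusted p = 0.908). It was still called without prefix 909. Its call was lost with DESeq2 (log2 fold change 5.28), without the term for type (3.58), with the prefix as a block (6.92), with counts summed per prefix (6.46) and in prefixes with both groups (5.59).

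The other 17 sparse genes called higher had counts in 5 to 12 Astro- neurons. Genes with counts in fewer than 10 Astro- neurons passed the filter only with the help of the Astro+ neurons. *Pdk2*, *Acadl*, *Clybl*, *Snapc2* and *Lgals8* are among them. Their calls and adjusted p are therefore given as a description. *Acadl*, an acyl-CoA dehydrogenase of fatty acid oxidation, had a count in 6 of 14 and 5 of 62 neurons (log2 fold change 6.21 ± 1.24, adjusted p = 0.00173). *Clybl*, a mitochondrial lyase, had one in 8 and 8 neurons (6.74 ± 1.35 on the same scale, adjusted p = 0.00173). The remaining genes named by their adjusted p were *Usp12*, *Snapc2*, *Trove2*, *Tmem163*, *Wdr7*, *Lgals8* and *Endou*, with counts in 4 to 7 Astro+ neurons. *Snapc2*, a subunit of the complex that starts snRNA transcription, was present in 6 of 14 and 8 of 62 neurons. *Lgals8*, a galectin, was present in 5 and 7.

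The fitted fold change and the plain means went opposite ways for 2 sparse genes. *Fxyd6*, a regulator of the sodium pump, was called higher with a log2 fold change of 6.05 (adjusted p = 0.0133), yet its mean was 46.1 CPM in Astro+ and 106 CPM in Astro- neurons. All 28 Astro- Pyr←ORBvl neurons were at 0, whereas 12 Astro- Pyr←LP neurons had counts. *Cacna1h*, a T-type calcium channel, likewise had a mean of 18.97 CPM in Astro+ and 45.04 CPM in Astro- neurons with a log2 fold change of 4.59. The other 20 genes called higher had the higher mean CPM in Astro+ neurons. *Fxyd6* and *Cacna1h* were chosen for description after their values were seen.

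**Figure D5:**
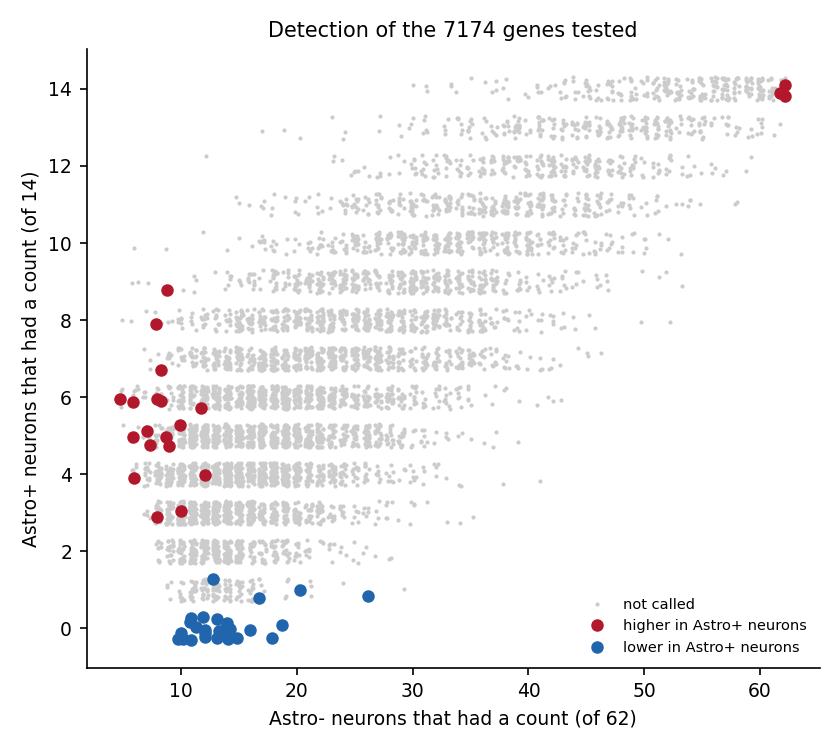
Each of the 7174 genes tested, by the number of Astro- neurons (x axis, of 62) and Astro+ neurons (y axis, of 14) with a count, jittered by up to 0.3. Genes called lower (blue) had counts in at most 1 Astro+ neuron, and genes called higher (red) had counts in 3 to 9 Astro+ neurons or in all neurons.

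The genes called lower were those missing from the Astro+ neurons. Of 27 genes (0.376% of those tested), 23 had a count in no Astro+ neuron and 4 in 1. They had counts in 10 to 26 of the 62 Astro- neurons. Every tested gene at 0 in all 14 Astro+ neurons, 23 in number, was called. These 23 genes passed the filter on low counts through the Astro- neurons alone, so they had to differ, and their values are given as a description. *Grm8*, a metabotropic glutamate receptor that dampens transmitter release, had counts in 19 Astro- neurons (up to 1467 CPM) and in 0 Astro+ neurons. *Med1* and *Med14*, subunits of the Mediator complex of transcription, had counts in 18 and 16 Astro- neurons. *Srsf12*, a splicing regulator, had counts in 14 Astro- neurons, and *Creld2*, a protein of the endoplasmic reticulum, in 13. The others named by adjusted p, *Zdhhc18*, *Fam193a*, *Gm15728*, *Wdr60* and *Ankrd13d*, had counts in 11 to 15 Astro- neurons.

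Presence alone, tested over the same 7174 genes with two-sided Fisher's exact tests, gave other genes. This test was added after the data were seen. It called 7 of the 7174 genes, and 0 of the 49 genes above. All 7 were present in a larger share of Astro+ neurons, as were 74.4% of all genes tested. The test had no term for type or for the number of detected genes. The 3 with the smallest adjusted p were *Pgm2*, an enzyme of sugar phosphate metabolism (12 of 14 and 12 of 62 neurons, adjusted p = 0.0197), *Rhog* (10 and 6 neurons, adjusted p = 0.0197) and *Rhoc* (13 and 17 neurons, adjusted p = 0.0197), 2 small GTPases. *Grm8* was not among the 7.

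No gene of neuronal identity was called, but with 19 genes tested 0 calls is near the 0.683% of all genes. *Snap25*, of the synaptic vesicle fusion machinery, had counts in all 76 neurons, with medians of 2148 CPM in Astro+ (448 to 6966) and 3577 CPM in Astro- neurons (up to 12352), and a log2 fold change of -0.01 ± 0.43. Of 19 pan-neuronal and excitatory genes tested, 8 differences were positive and the median log2 fold change was -0.12. Of these genes 0 were called and 0 had an unadjusted p under 0.05, beside 5.34% of all genes. With the RLE size factors 1 of 19 was positive (median -0.87, beside -0.69 for all genes), and with the prefix as a block 14 of 19 (median 0.43, beside 0.58). *Slc17a7*, the vesicular glutamate transporter of cortical excitatory neurons, had counts in 12 of 14 and 47 of 62 neurons at medians of 99.0 and 95.4 CPM (log2 fold change 0.14 ± 0.92). *Camk2a*, a kinase of excitatory synapses, had a log2 fold change of -0.77 ± 1.03, *Gria2*, an AMPA receptor subunit, -0.90 ± 0.69, and *Syt1*, the calcium sensor of vesicle release, -0.53 ± 0.64. With standard errors of this size, a change of 2-fold in most of these genes was not detectable.

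Layer, activity and GABAergic genes gave no calls either, which with so few genes is near the 0.683% of all genes. *Fezf2*, a transcription factor of layer 5 output neurons, had counts in 8 of 14 and 34 of 62 neurons (log2 fold change -0.43 ± 1.08). Of 10 layer genes tested 5 differences were positive, and of 14 immediate early and stress genes 6, with median log2 fold changes of 0.01 and -0.05. *Fos*, an activity-induced gene, had medians of 1415 CPM in Astro+ and 678 CPM in Astro- neurons (log2 fold change -0.06 ± 0.63). Of 13 matched GABAergic genes, 3 passed the filter, all with positive differences and a median log2 fold change of 0.73. Although neurons with high GABAergic sums had been left out, the summed level of the list was 0 to 990 CPM in Astro+ neurons (median 224) and 0 to 778 CPM in Astro- neurons (median 10.9). Its part in the differences between the groups was not tested. None of these 3 lists had a gene at an unadjusted p under 0.05, beside 5.34% of all genes.

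Within the types, the calls differed in number, and the test of the difference between the types depended on the tool and the gene filter. Among Pyr←LP neurons (6 against 34) edgeR called 20 genes, all higher in Astro+ neurons (0.279% of the 7174 genes), and among Pyr←ORBvl neurons (8 against 28) it called 4, all higher (0.0558%). The direction turned with the tool, since DESeq2 called 1 higher and 94 lower in Pyr←LP neurons, and 5 higher and 193 lower in Pyr←ORBvl neurons. The 4 were *Clybl*, *Endou*, *Fxyd6* and *Wdr7*, and no gene was called within both types. For the difference between the types edgeR called 0 genes, with 729 at an unadjusted p under 0.05, but 56 with filterByExpr and 1224 with no gene filter, and DESeq2 called 180. The astrocyte list had a median log2 fold change of 1.09 in each type, with 19 of 22 genes positive in Pyr←LP and 18 of 22 in Pyr←ORBvl neurons, beside medians of 0.06 and -0.18 for all genes. The mitochondrial list had medians of 1.09 and 1.76, with all 13 genes positive in both types. Among the Astro+ Pyr←LP neurons, the mitochondrial share was 16.1% in Pyr←LP C27 and 1.26 to 5.75% in the other 5.

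The number of calls rested on a few prefixes. Without prefix 909, which held 3 Astro+ neurons and 1 Astro- neuron, 3 of the 49 genes were called, *Pdk2*, *Snapc2* and *Trove2*, and none besides. With the prefix as a block edgeR called 4 genes, of which *Snapc2* was among the 49, and with counts summed per prefix and group it called 0 (103 at an unadjusted p under 0.05). With the RLE size factors 54 genes were called, 14 higher and 40 lower, in place of 22 higher and 27 lower. DESeq2 called 2 higher and 43 lower.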

How the data were processed

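Single neurons were collected by Patch-seq and amplified with a Smart-seq2-based kit, without molecular identifiers. Per the study's methods, the authors aligned reads to GRCm38 (mm10) with STAR 2.5.3, removed PCR duplicates and counted uniquely aligned reads per RefSeq gene. The authors deposited raw counts per gene, 2410 to 1948982 in total per neuron. They also deposited FPKM values, whose computation is not given in the sources used here.

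Groups followed the rule given at the start of the report. After removal of genes that did not reach 5 counts in 10 neurons, counts were fitted with edgeR 4.0.16 (R 4.3.3, TMM scaling, robust quasi-likelihood test, Benjamini-Hochberg adjustment). The 3 selecting genes and the 3 GABAergic genes of the rule were left out of the calls after the fit, not before it. Input type was a covariate, and a fit of 4 groups gave values within types. Alternatives used DESeq2 1.42.0, limma 3.58.1 (log2(FPKM + 1) and log2(FPKM + 0.1)) and Fisher's exact tests in scipy 1.17.1. CPM divide a count by the neuron's total, times 1000000. Neurons served as replicates, so p-values measure the spread between neurons, some of which share a mouse. Intervals cover counting error only. Gene positions came from RefSeq on GRCm38. Members and gene lists were chosen with earlier results of these data known. Named genes were a set of astrocyte and neuronal genes, the first 10 by adjusted p for each direction, and called genes of the lists. Further list genes with values were chosen after these were seen. The edgeR test was also run on simulated counts, whose outcome is not reported here. Some genes of the lists are counted but not reported here by name.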

Additional observations from a re-analysis of the deposited data

Results flagged for a closer look

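Within the Astro+ neurons of a type, 26 sets of values were examined for a neuron far from the others, and 9 had one, where chance gives about 1 in 20. The sets are not independent, since the mitochondrial genes share neurons.

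In the 6 Astro+ Pyr←LP neurons, Pyr←LP C27 had 16.1% of its counts on mitochondrial mRNAs (median of the type's Astro+ neurons 3.37%), with 27713 CPM of *mt-Cytb*, 28111 CPM of *mt-Atp6* and 20193 CPM of *mt-Co3*. In the 8 Astro+ Pyr←ORBvl neurons, Pyr←ORBvl C31 had 25.03% (median 8.23%), with 54279 CPM of *mt-Cytb*, 42348 CPM of *mt-Atp6* and 32098 CPM of *mt-Co3*. Pyr←ORBvl C14, the shallowest Astro+ neuron at 55127 counts, had 39763 CPM over the astrocyte list, beside 22621 CPM in the next neuron.

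Astrocyte transcripts also appeared in neurons outside the comparison. Of the 8 neurons left out for their GABAergic sum, Pyr←LP C29 had summed counts of 270 and Pyr←LP C34 of 887, the latter above every Astro+ neuron. The Astro- neurons are at 0 by selection.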

How the results depend on the processing

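The replicate numbers gave no pairs of neurons, because they only name the neurons in accession order. The label prefix served as a block instead. Pyr←ORBvl C5 and C11, with close summed astrocyte list levels of 2270 and 2217 CPM, were both left out by the GABAergic limit. Where GABAergic neurons were kept, they entered as 2 separate Astro- neurons and were not averaged.

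Over both types the 49 calls became 4129 with no gene filter, 21 with edgeR's filterByExpr, 31 (4 higher, 27 lower) without the term for type, 4 with the prefix as a block, 1 after thinning to 100000 counts, 0 with sums per prefix, and 24 and 28, all higher, with limma on log2(FPKM + 1) and log2(FPKM + 0.1). With GABAergic neurons kept it was 46, of which 39 were higher and 7 lower. Alternatives chosen after seeing the data gave 99 with Astro+ defined by *Gfap* alone, 7 with Fisher's exact tests and 0 in prefixes with both groups when the gene filter was applied again. Fewer neurons then left fewer genes tested, 4005, and with the 7174 genes kept 72 were called. Leaving out a prefix gave 3 (prefix 909) to 77 (prefix 913), with 28 without 822 or 915, and leaving out an Astro+ neuron 47 to 69. Astrocyte list genes called were 13 of 47 with no gene filter, where 4129 of 17864 genes were called in all. They were 0 to 1 when a prefix or neuron was left out.

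Within Pyr←LP the 20 calls became 95 with DESeq2, 933 with no filter and 110 with filterByExpr, and 11 (without Pyr←LP C27) to 21 when a neuron was left out, with 13 without Pyr←ORBvl C30. Within Pyr←ORBvl the 4 became 198, 4046 and 44, 7 with depth as a covariate, and 1 (without Pyr←LP C33) to 5, with 2 without Pyr←LP C31. The difference between types gave 180, 1224 and 56, and 0 whichever neuron was left out. The difference in the share of Astro+ neurons, 7.22 percentage points, was 1.40 to 7.22 over its alternatives and never passed the test.

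Signs changed for some log2 fold changes of single genes, none of them called at that setting. The median over all genes, 0.05 in the first fit, also moved. It was -0.69 with RLE, -0.66 with DESeq2, 0.58 with the block and -0.55 with sums. For *Slc1a2* the value was -0.47 with RLE, -0.63 without type, -0.35 with the block, -2.83 with sums, -0.10 with GABAergic neurons kept, -0.89 with *Gfap* alone and -0.17 in neurons of at least 100000 counts. It was -0.34 to 1.10 with a prefix or neuron left out. *Slc1a3* had -0.024 with sums. *Apoe* had -0.075 with DESeq2 and -0.078 with RLE. *Sox9* had -0.90 with DESeq2, -0.85 with RLE and -0.50 with sums, and -0.15 to 0.90 with a prefix or neuron left out. *Usp12* had -1.18 with the block and -1.17 with sums. *Ankrd13d* had 0.63 at a threshold of 5. *Snap25* had 0.011 with no filter, 0.053 at 5 and 0.0090 with GABAergic neurons kept (-0.19 to 0.11 with a prefix or neuron left out). *Slc17a7* had -0.30 with DESeq2 and -0.30 with RLE (-0.18 to 0.45 with a prefix or neuron left out), *Camk2a* 0.43 with the block, and *Fezf2* 0.015 and 0.013 with limma at pseudocounts of 1 and 0.1. The cause of these changes was not tested.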
